A study of Mus musculus with 18 samples.

Results

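The 8.01 Mb of mouse chromosome 12 around Mycn were described tumor by tumor, because a stretch of them held very high ATAC-seq counts in part of the tumors. The members are the peaks that start on chromosome 12 between 8936093 and 16941914 in GRCm38 (mm10), which is 4000000 bp on either side of Mycn. There were 457 such peaks of 111664 in all. The annotation starts 125 genes in the same span, of which 54 were in the gene count table and 23 of those were protein coding. The span was chosen by the ATAC-seq counts themselves, so its ATAC-seq values and calls are given as a description, and nothing is read from a test on them. RNA was not used for the choice.

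Mycn encodes N-MYC, a basic helix-loop-helix factor of the MYC family that binds E-box DNA as a dimer with MAX. Extra copies of MYC, MYCL or MYCN are a known event in small cell lung cancer (SCLC) of patients and of mouse models, and in neuroblastoma MYCN is often amplified together with its neighbors DDX1 and NBAS. An amplified stretch of DNA gives more ATAC-seq fragments over its whole length, between the open sites as well as at them, whereas the opening of a regulatory site adds fragments at that site. In counts on peaks alone, more copies of the DNA and more open chromatin cannot be told apart.

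All mice carried conditional (L/L) alleles of Rb1, p53 and a further retinoblastoma family gene, named Rbl1 in the labels and in 1 part of the Methods and Rbl2 in another. TKO mice carried these without a change of Carm1 or Nfib. TKO;Carm1 mice carried Carm1 L/L in addition (CARM1 knockout), and TKO;NfibR388K mice carried an arginine-to-lysine knock-in of Nfib (NFIB mutant). By the Methods, the mice of each genotype used for these assays also carried a tdTomato allele. Adenovirus-Cre was given to the lungs at 8 weeks of age and tumors were taken 28 weeks later, from 3 animals per genotype and per assay. The Methods describe sorting on tdTomato, a reporter that Cre switches on, in every cell type the virus entered, and 1 passage on ATAC-seq names cancer cell lines. By the paper both assays were made on the same biopsies, so libraries of both assays with the same number, such as TKO 1, are taken here as the same tumor.

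Libraries held 26917178 to 47653979 ATAC-seq counts on peaks and 15848866 to 20915057 RNA-seq counts on genes. Levels are given in CPM, counts per 1000000 after TMM scaling. The libraries labelled SCLC were not alike in cell type markers. The summed level of 12 neuroendocrine markers was 1730 to 3923 CPM in TKO, 59.2 to 1943 CPM in CARM1 knockout and 33.7 to 51.2 CPM in NFIB mutant tumors. The summed level of 8 fibroblast markers was 93.8 to 285 CPM in TKO, 20479 to 29022 CPM in CARM1 knockout and 15604 to 20331 CPM in NFIB mutant tumors. The 6 leukocyte markers together gave 1.06 to 43.7, 155 to 2291 and 12.5 to 424 CPM, with Cd3e at 0 throughout, while the ranges of the endothelial (4 genes) and lung epithelial (5 genes) lists overlapped between genotypes. In every comparison of TKO with a mutant below, cell makeup differed along with genotype, and its part was not tested. In bulk libraries fewer cells of a type and less RNA per cell cannot be told apart. Carm1 RNA was 44.5 to 103 CPM in TKO and 50.8 to 79.1 CPM in CARM1 knockout tumors, and a count over the whole gene cannot show loss of single exons. Within TKO, log2 CPM correlated at r = 0.956 (RNA) and 0.940 (ATAC) between TKO 1 and TKO 2, and at 0.898 to 0.899 and 0.833 to 0.834 between either and TKO 3, as a description across features.

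Pieces of reference sequence (GRCm38.p6, plus strand, read by coordinate) mark where the gain began, was highest and ended. The first is the outer end of the leftmost gained peak, in an intron of Vsnl1 (chr12:11384767-11384966). The next is the middle of the peak with the highest ratio, between genes to the left of Mycn (chr12:12896222-12896421). The last is the outer end of the rightmost gained peak, in an intron of the noncoding gene Gm48479 (chr12:14059439-14059638). Capitals mark the half-site TTGGC of nuclear factor I (NFI) proteins on either strand (GCCAA).
left edge: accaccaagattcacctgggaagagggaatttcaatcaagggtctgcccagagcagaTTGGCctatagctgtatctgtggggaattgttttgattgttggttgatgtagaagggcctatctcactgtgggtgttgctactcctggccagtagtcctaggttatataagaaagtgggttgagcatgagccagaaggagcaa
highest peak: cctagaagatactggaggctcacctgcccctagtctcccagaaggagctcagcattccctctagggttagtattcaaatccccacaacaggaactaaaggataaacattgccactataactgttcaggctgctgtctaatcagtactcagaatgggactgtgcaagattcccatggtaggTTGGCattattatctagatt
right edge: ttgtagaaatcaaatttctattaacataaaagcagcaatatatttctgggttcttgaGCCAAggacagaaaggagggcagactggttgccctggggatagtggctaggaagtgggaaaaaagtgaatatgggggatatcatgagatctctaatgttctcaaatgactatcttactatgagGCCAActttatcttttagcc

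The genes that the results turn on are shown by the bases before their start sites, from RefSeq promoter sequences (GRCm38.p6) trimmed at whichever of the RefSeq and the GENCODE start lies further upstream. Fam49a, Mycn, Ddx1 and Nbas are the neighbors with very high RNA, and Vsnl1 is shown because its start site lay in the gain without such RNA. Sequences run 5′ to 3′ on the strand of each gene, at chr12:12261927-12262138 (Fam49a, plus), chr12:12941915-12942086 (Mycn, minus), chr12:13249214-13249424 (Ddx1, minus), chr12:13268877-13269126 (Nbas, plus) and chr12:11436614-11436828 (Vsnl1, minus). Capitals mark TTGGC or GCCAA.
Fam49a: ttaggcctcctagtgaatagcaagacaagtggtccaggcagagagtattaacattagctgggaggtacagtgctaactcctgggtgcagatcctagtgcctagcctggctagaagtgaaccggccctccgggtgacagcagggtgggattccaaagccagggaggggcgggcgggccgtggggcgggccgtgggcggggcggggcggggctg
Mycn: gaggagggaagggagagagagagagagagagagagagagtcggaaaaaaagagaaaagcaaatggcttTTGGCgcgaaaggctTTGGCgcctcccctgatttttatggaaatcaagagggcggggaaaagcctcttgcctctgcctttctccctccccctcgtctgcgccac
Ddx1: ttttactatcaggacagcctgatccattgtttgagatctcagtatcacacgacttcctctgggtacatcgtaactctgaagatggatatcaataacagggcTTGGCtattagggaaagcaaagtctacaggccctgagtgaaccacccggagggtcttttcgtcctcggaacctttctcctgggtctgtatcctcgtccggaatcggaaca
Nbas: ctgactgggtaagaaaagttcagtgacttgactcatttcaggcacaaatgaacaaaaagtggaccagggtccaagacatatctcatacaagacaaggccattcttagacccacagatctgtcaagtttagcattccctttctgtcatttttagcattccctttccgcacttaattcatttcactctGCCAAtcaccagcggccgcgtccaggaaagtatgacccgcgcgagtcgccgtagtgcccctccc
Vsnl1: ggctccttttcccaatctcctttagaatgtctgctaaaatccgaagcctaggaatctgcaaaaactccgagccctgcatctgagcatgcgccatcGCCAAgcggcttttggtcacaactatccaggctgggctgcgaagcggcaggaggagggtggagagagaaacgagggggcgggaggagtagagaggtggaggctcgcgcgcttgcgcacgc

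The motifs below were searched on both strands in the 250 bases before each start. The MYC/MAX E-box CACGTG was in none of the 5 genes and in 6.02% of 32851 RefSeq promoters. The E-box CAGCTG was likewise in none of the 5 and in 13% of all promoters. The NFI half-site was found 2 times before Mycn, 1 time each before Ddx1, Nbas and Vsnl1, not before Fam49a, and in 41.5% of all promoters. A match of these letters is not a bound site, and their absence from 250 bases says nothing of the factor.

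The span took a very different share of the ATAC-seq counts in TKO 1 and TKO 2 than in the other 7 libraries. It held 10.2% of all counts on peaks in TKO 1 (exact binomial 95% interval 10.1 to 10.2%) and 9.68% in TKO 2 (9.68 to 9.69%). In TKO 3 the share was 0.276% (0.274 to 0.278%). It was 0.242%, 0.200% and 0.218% in CARM1 knockout 1, 2 and 3, and 0.234%, 0.240% and 0.200% in NFIB mutant 1, 2 and 3. The intervals cover counting error only. Thus TKO 3 was closer to the mutants than to the other TKO tumors, and the TKO libraries spread far more than any difference between the mutants.

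To place the gain, peaks were summed by their middle in windows of 100000 bp, and each library was divided by the median of the other 8 (log2 ratio after adding 0.5 CPM). A window at a log2 ratio of 2 or more was counted as gained. Of 64 windows with peaks, 28 were gained in TKO 1 and 29 in TKO 2, against 2 in TKO 3 and 0 in each of the 6 mutant libraries. On the other chromosomes, 13.9% of 17615 windows passed the same mark in TKO 1, 14.9% in TKO 2 and 11.7% in TKO 3. There the share was 0.602%, 0.874% and 0.596% in CARM1 knockout 1, 2 and 3 and 0.318%, 0.216% and 1.3% in NFIB mutant 1, 2 and 3. The span was chosen on these values, so nothing is read from its excess. On chromosome 12 outside the span, 27.9%, 28.0% and 21.3% of 806 windows passed in TKO 1, 2 and 3, so all TKO tumors had more gained windows there than on the other chromosomes.

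In TKO 1 and TKO 2 the gained windows formed 1 unbroken run from 11336093 to 14136092, which is 2.8 Mb and 27 windows with peaks, with the same first and last window in both. The next longest run was 16 windows on the other chromosomes in TKO 1, and 19 in TKO 2. Over the run the log2 ratio was 4.40 to 8.93 in TKO 1, with a median of 5.79. In TKO 2 it was 4.09 to 9.43, with a median of 6.02. No window of another chromosome reached the highest value of the run, the largest being 6.15 in TKO 1 and 6.27 in TKO 2. The plot of windows by distance from Mycn shows a summit just left of Mycn, with lower levels on both sides of it.

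**Figure D1:**
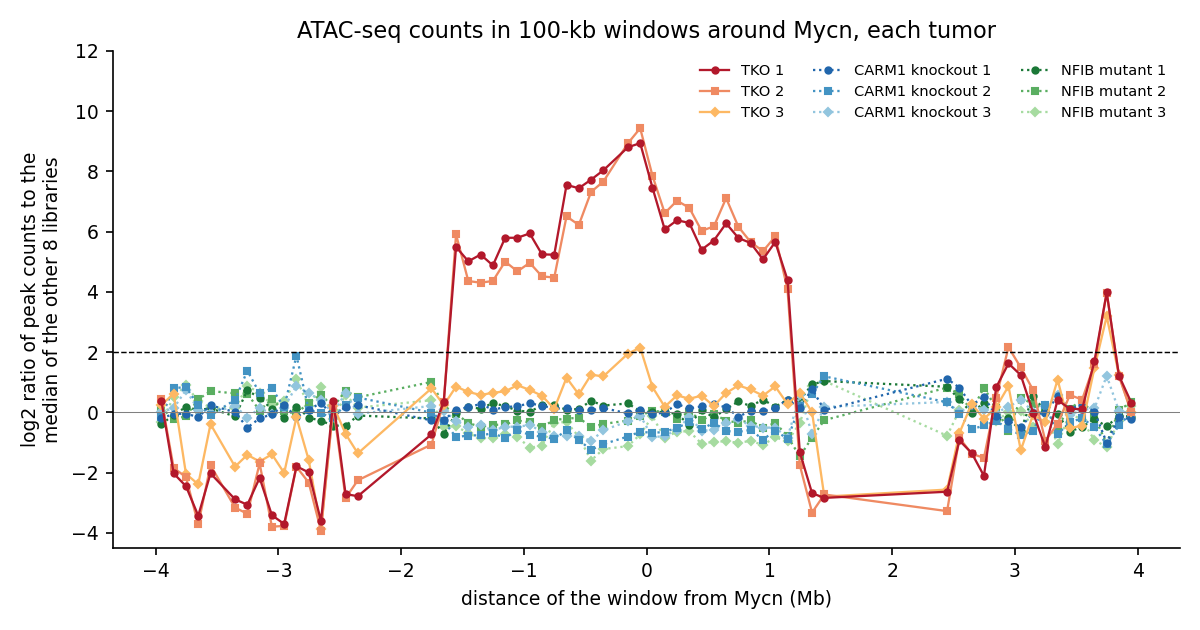
Log2 ratio of summed ATAC-seq counts in 100-kb windows to the median of the other 8 libraries (y axis) by distance of the window from Mycn in Mb (x axis), with 1 line per library and a dashed line at a log2 ratio of 2. TKO 1 and TKO 2 lie between 4.09 and 9.43 over 27 windows, while TKO 3 reaches 2.15 at its highest there and the mutants stay under 2 in the whole span.

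Peak by peak, the edges of the gain were set by the gained peaks of TKO 1. Both were sharp, and TKO 2 stepped between the same peaks. At the left edge, the peak at chr12:11365036-11365598 had 0.128 and 0.185 CPM in TKO 1 and TKO 2. The next peak, at chr12:11384767-11420756 and 35990 bp long, had 818 and 1094 CPM. These are neighbors 19.2 kb apart, both within introns of Vsnl1. At the right edge, the peak at chr12:14050320-14059638 in an intron of Gm48479 had 152 and 128 CPM in TKO 1 and TKO 2. The next peak, 9.38 kb further on at chr12:14069019-14069500, had 0.0956 and 0.185 CPM. The mutants had 8.22 to 14.97 CPM in the first gained peak and 1.095 to 4.86 CPM in the last. In TKO 3 these were 18.2 and 2.92 CPM. The peaks beside an edge differ in length, so levels in CPM per kb of peak are given as well. From outside to inside the left edge they rose from 0.2265 to 22.7 (TKO 1) and from 0.329 to 30.4 (TKO 2). From inside to outside the right edge they fell from 16.3 to 0.198 and from 13.8 to 0.385. In TKO 3 they fell from 30.1 to 0.506 at the left edge and rose from 0.313 to 9.38 at the right. The mutants had 0.0682 to 0.687 outside and 0.228 to 0.416 inside the left edge. At the right edge they had 0.118 to 0.521 inside and 0.849 to 6.60 outside. TKO 3 thus stepped the opposite way from TKO 1 and TKO 2 in both places. All mutants did so too at the right edge, and most of them, by little, at the left.

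TKO 3 differed from the other TKO tumors in the peaks just outside the edges as well, where it was the higher one. The peak left of the gain, in Vsnl1, had 16.9 CPM in TKO 3 against 0.0384 to 0.387 CPM in the mutants. The peak right of the gain had 4.52 CPM in TKO 3 against 0.409 to 3.18 CPM in the mutants.

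**Figure D2:**
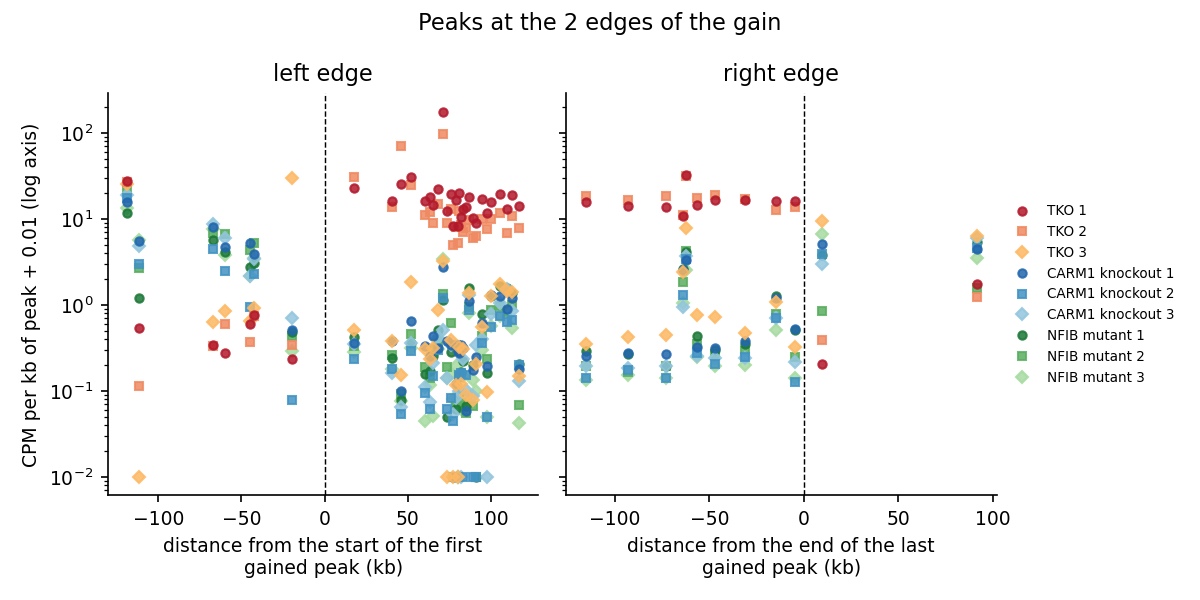
ATAC-seq CPM per kb of peak, plus 0.01, on a log axis (y) by distance in kb from the start of the first gained peak (left panel) and from the end of the last (right panel), with 1 point per peak and library. Inside the edges TKO 1 and TKO 2 lie above the other 7 libraries in nearly every peak, for example at 22.7 and 30.4 CPM per kb in the first gained peak against 0.228 to 0.416 in the mutants, and outside they fall to the level of the others or below.

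Between the edges lay 250 peaks. The edges are the ends of the longest unbroken run of peaks at a log2 ratio of 2 or more in TKO 1. That all 250 were gained in TKO 1, with log2 ratios of 2.03 to 9.30, is thus set by the definition. In TKO 2, 238 of them were gained, with 1.20 to 9.78. The longest unbroken run of TKO 2 itself was 60 peaks, from 12159131 to 13757659. The 12 peaks below the mark in TKO 2 were short ones of at most 936 bp. In TKO 3, 2 of the 250 reached the mark and 211 had a log2 ratio above 0, with a median of 0.41. In the mutants none reached it, and the medians were -0.59 to 0.11. Per kb of peak the gain held 53.1 CPM in TKO 1 and 55.8 CPM in TKO 2, against 0.837 CPM in TKO 3 and 0.300 to 0.528 CPM in the mutants.

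The shape of the peaks themselves set the gain apart. In the windows of the run, 254 peaks had a median length of 3458 bp, and 106 of them (41.7%) were longer than 5000 bp. In the rest of the span none of 203 peaks was that long, and the median was 750 bp. On the other chromosomes 370 of 106637 peaks (0.347%) were longer than 5000 bp, with a median of 779 bp. Peaks covered 90.6% of the run and 3.58% of the rest of the span, and the Methods state that regions of putative altered copy number had been filtered out. Of the peaks in the run, 72.0% lay between genes and 4.72% at promoters, against 61.6% and 11.3% in the rest of the span. Among peaks of at most 5000 bp, the middle 300 bases held CACGTG in 1.35% of 148 peaks in the run and 4.87% of 106267 peaks on other chromosomes. CAGCTG was in 8.11% against 22.7%, and the NFI half-site in 34.5% against 50.6%. These shares are given as a description of where the peak middles fell.

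The peaks with the most counts lay around Mycn. The longest, 159596 bp at chr12:12656593-12816188 to the left of Mycn, had 26379 CPM in TKO 1, 28935 CPM in TKO 2, 228 CPM in TKO 3 and 30.5 to 72.2 CPM in the mutants. The peak with the highest ratio, chr12:12865716-12926928, covers the start of the long noncoding RNA 4930519A11Rik and had 12640, 17732 and 112 CPM in TKO 1, 2 and 3 and 12.6 to 21.1 CPM in the mutants. Mycn itself lay whole within a peak of 105000 bp, chr12:12928648-13033647, so no separate peak at its start site was counted. That peak had 11955, 15739 and 121 CPM in TKO 1, 2 and 3. In CARM1 knockout tumors it had 66.6, 43.1 and 38.8 CPM, and in NFIB mutant tumors 68.7, 70.3 and 63.1 CPM. All TKO tumors were above all mutants at these 3 peaks, TKO 3 by far less than the other two.

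Further out, the peak chr12:12251292-12330720 over the start of Fam49a had 10167, 4867 and 119 CPM in TKO 1, 2 and 3 and 33.1 to 56.9 CPM in the mutants. To the right of Mycn, the peak chr12:13034569-13109388 had 3914, 5315 and 62.6 CPM against 30.5 to 53.9 CPM. The peak chr12:13510413-13620342 over the end of Nbas had 3799, 6138 and 83.4 CPM against 32.3 to 62.8 CPM. TKO 1 was thus higher than TKO 2 at Fam49a, and TKO 2 higher at Mycn and to its right.

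The levels stepped along the gain, and the steps fell at different heights in TKO 1 and TKO 2. From the left end to Fam49a the summed log2 ratio was 5.35 in TKO 1 and 4.69 in TKO 2. Over Fam49a it was 7.65 and 6.52, and between Fam49a and Mycn it was 8.35 and 8.41. From Mycn to Nbas it fell to 6.68 and 7.16, over Nbas to 5.81 and 6.44, and from there to the right end to 5.62 and 6.01. Of the 13 windows that started more than 200 kb left of Mycn, 12 were higher in TKO 1. Of the 14 windows from there to the right end, 13 were higher in TKO 2. The difference ranged from 1.22 in favor of TKO 1 to -0.84, and with 1 library per tumor it has no replicate check. Across the 27 windows the ratios of both tumors correlated at r = 0.890, as a description of neighboring windows that share a scaling and a reference.

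Outside the gain the summed ratios of the TKO tumors were closer to each other than within it. Left of it, the summed log2 ratio was -0.82, -0.84 and -0.44 in TKO 1, 2 and 3, and the lowest windows of the span reached -3.71, -3.93 and -3.87. Right of the gain it was 0.76, 0.74 and 0.46. The single gained window that TKO 3 had outside the gain was centered 3747 kb right of Mycn, at Ntsr2, and was gained in all TKO tumors, at 3.98, 3.97 and 3.18. TKO 2 had 1 more, at 2.16 and centered 2947 kb right of Mycn, where TKO 1 had 1.62. At the ends of the span, the outermost peaks had 6.57, 5.96 and 3.47 CPM (left) and 0.733, 0.216 and 0.0845 CPM (right) in TKO 1, 2 and 3. The first peaks beyond the ends had 1.63, 2.04 and 1.69 CPM and 1.28, 0.927 and 0.592 CPM, so no gain crossed either end.

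By edgeR's test, 280 of the 429 peaks of the span with enough counts were called higher in TKO than in CARM1 knockout tumors, and 110 lower, beside 32.4% and 38.7% of all 111116 peaks tested. Against NFIB mutant tumors 281 were called higher and 112 lower, beside 34% and 39.3%. A call needed an adjusted p under 0.1 and a log2 fold change of at least 0.5. The choice of the span used these contrasts, so nothing is read from the counts. With library totals as the only scaling, the share of higher calls among all calls went from 45.6% to 34.1% against CARM1 knockout and from 46.4% to 35.7% against NFIB mutant tumors. Between the mutants 0 of 429 were called, beside 0% of all, with 5 at an unadjusted p under 0.05. DESeq2 called 0 in the span as well, beside 523 positive and 537 negative calls among all 111664 peaks (CARM1 knockout minus NFIB mutant).

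Expression in the gain was read from RNA. The run overlaps 51 annotated genes, 6 of them protein coding. In the count table were 21, and 8 of them reached 1 CPM in at least 1 library, which are the 6 protein-coding genes, a long noncoding RNA and a pseudogene. Each library was again compared with the median of the other 8 on the log2 scale with 0.5 CPM added. In TKO 1, 7 of the 8 genes reached a log2 ratio of 2, in TKO 2 6 of 8, and in TKO 3 3 of 8. Of the 16 expressed genes of the span outside the gain, 3 did so in each of the TKO tumors. Of 16440 expressed genes outside the span, 8.72% did in TKO 1, 7.73% in TKO 2 and 10.3% in TKO 3. In the gain, Rad51ap2, 4930519A11Rik and the pseudogene Gm6736 reached 1 CPM in TKO 1 and TKO 2 alone, and Vsnl1 in TKO 3 alone. These genes entered the 8 of the gain only through those tumors, so nothing is read from the counts in the gain. The genes in the gain together made up 2.12% and 3.32% of all RNA counts in TKO 1 and TKO 2, 0.0540% in TKO 3 and 0.0197 to 0.0259% in the mutants.

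**Figure D3:**
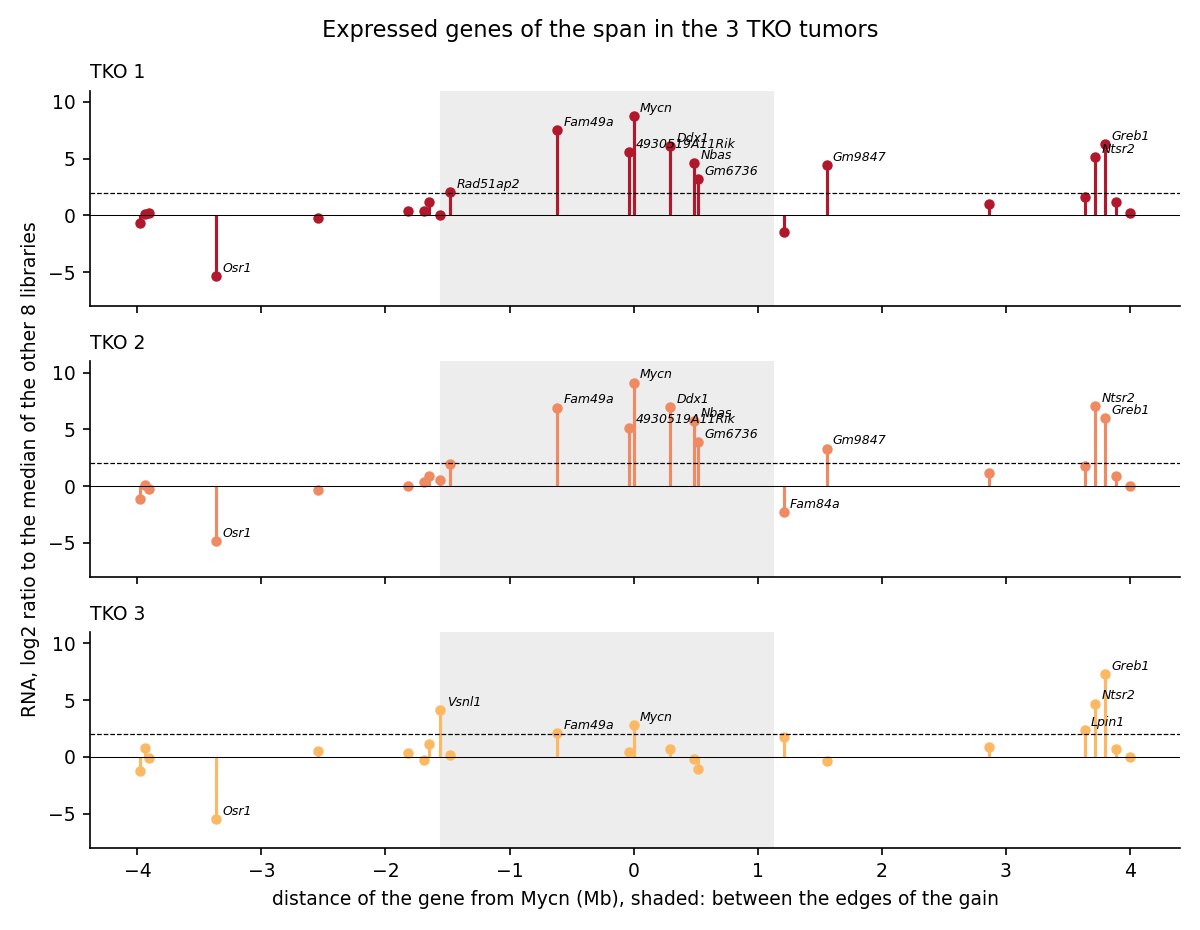
RNA log2 ratio of each expressed gene of the span to the median of the other 8 libraries (y axis) by distance from Mycn in Mb (x axis), 1 panel per TKO tumor, shaded between the edges of the gain and dashed at a log2 ratio of 2. In TKO 1 and TKO 2 the tallest stems stand at Mycn (8.71 and 9.12), and in TKO 3 at Greb1, outside the gain.

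Mycn (ENSMUSG00000037169, chr12:12936093-12941914, minus strand) had 1173 CPM in TKO 1, 1560 CPM in TKO 2 and 19.1 CPM in TKO 3. It had 1.22, 0.817 and 1.57 CPM in CARM1 knockout 1, 2 and 3, and 14.4, 3.02 and 1.27 CPM in NFIB mutant 1, 2 and 3. All TKO tumors were above all mutants, TKO 3 only narrowly above NFIB mutant 1. The TKO mean was 917 ± 802 CPM (SD, n = 3), a spread almost as large as the mean. Mycn was higher in TKO than in CARM1 knockout tumors by a log2 fold change of 9.57 (standard error 1.85, adjusted p = 0.00762, edgeR quasi-likelihood test with Benjamini-Hochberg adjustment). The value against NFIB mutant tumors was 7.20 (1.66, adjusted p = 0.0117). Both calls stood in all 7 other settings and without each of the 9 libraries in turn, with adjusted p of at most 0.0351 and 0.0448. Each fit without 1 library keeps TKO 1 or TKO 2, so it cannot show what the calls are without both. Mycnos, the antisense neighbor of Mycn, was not analysed here.

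Ddx1 (ENSMUSG00000037149, chr12:13216973-13249213, minus strand) encodes a DEAD-box RNA helicase and lies to the right of Mycn. It had 12791, 23638 and 305 CPM in TKO 1, 2 and 3. In CARM1 knockout tumors it had 194, 196 and 179 CPM, and in NFIB mutant tumors 169, 163 and 163 CPM. The groups did not overlap, and TKO 3 was 1.64-fold above the median of the other 8 libraries, against 68.5-fold and 127-fold in TKO 1 and TKO 2. Ddx1 alone took 1.49% and 2.58% of the RNA counts of TKO 1 and TKO 2. Its log2 fold change was 6.01 against CARM1 knockout (standard error 1.29, adjusted p = 0.0110, edgeR) and 6.21 against NFIB mutant tumors (1.30, adjusted p = 0.00819).

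Nbas (ENSMUSG00000020576, chr12:13269133-13583811, plus strand) encodes a protein of vesicle transport between Golgi and endoplasmic reticulum and of RNA surveillance. It had 1565, 3339 and 58.7 CPM in TKO 1, 2 and 3. The mutants had 65.6, 60.7 and 64.8 CPM (CARM1 knockout) and 46.5, 71.8 and 42.6 CPM (NFIB mutant). TKO 3 lay within the range of the mutants, so here the genotypes overlapped. TKO was higher than CARM1 knockout by 4.70 on the log2 scale (standard error 1.16, adjusted p = 0.0182, edgeR) and than NFIB mutant by 4.95 (1.17, adjusted p = 0.0130).

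Fam49a (ENSMUSG00000020589, chr12:12262139-12380965, plus strand), now named Cyria, encodes a protein that binds the GTPase RAC1. It had 2652, 1791 and 64.3 CPM in TKO 1, 2 and 3. In CARM1 knockout tumors it had 7.25, 3.09 and 14.1 CPM, and in NFIB mutant tumors 23.2, 6.10 and 14.6 CPM. All TKO tumors were above all mutants, TKO 3 by 4.38-fold over the median of the other 8. In log2 terms TKO exceeded CARM1 knockout by 7.53 (standard error 1.45, adjusted p = 0.00740, edgeR) and NFIB mutant by 6.68 (1.39, adjusted p = 0.00794). For Ddx1, Nbas and Fam49a too, all 7 other settings and all fits without 1 library kept both calls, with adjusted p of at most 0.0648. These fits again keep TKO 1 or TKO 2, which hold most of the rise, so they do not show whether the calls rest on those tumors.

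The order of TKO 1 and TKO 2 in RNA followed that in ATAC-seq at these 4 genes. At Fam49a, TKO 1 was above TKO 2 by 1.12 in the ATAC-seq counts over the gene and by 0.57 in RNA (log2). At Mycn, TKO 1 minus TKO 2 was -0.40 in ATAC-seq and -0.41 in RNA, at Ddx1 -0.61 and -0.89, and at Nbas -0.60 and -1.09. These are 4 genes in 1 pair of tumors, without a replicate of the difference. The long noncoding RNA 4930519A11Rik, also in the gain, went the other way. Its RNA was 24.8 and 18.5 CPM in TKO 1 and TKO 2, while the peak over its start had 12640 and 17732 CPM. In TKO 1 and TKO 2 the RNA ratio exceeded the ATAC-seq ratio at Mycn, by 1.26 and 1.27. It was below it at Nbas, by 1.25 and 0.75, and within 0.40 of it at Ddx1 and Fam49a.

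**Figure D4:**
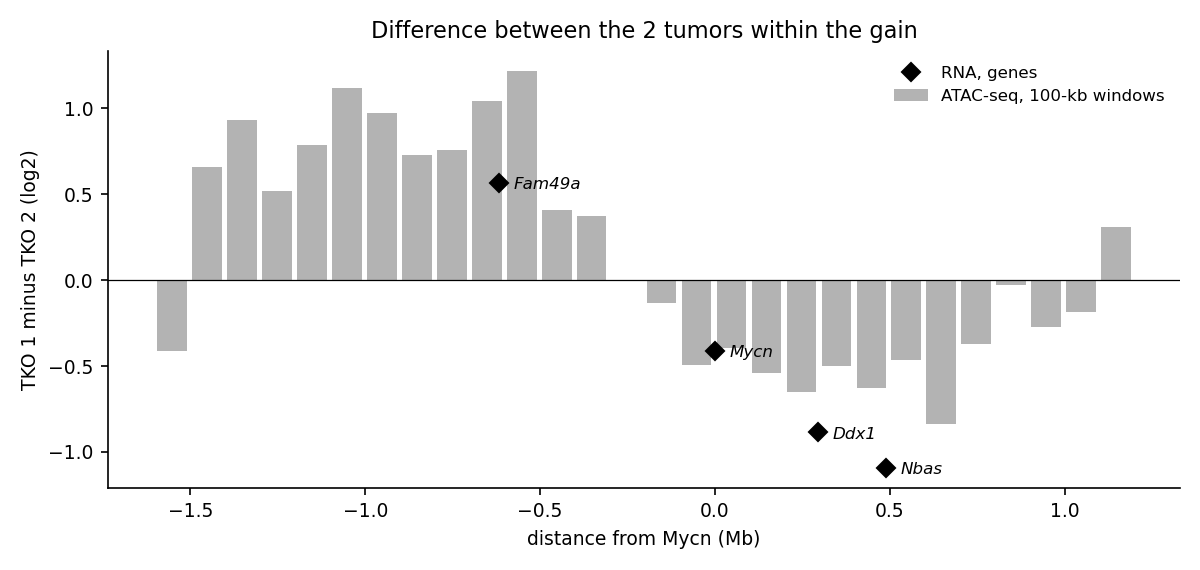
TKO 1 minus TKO 2 on the log2 scale (y axis) for ATAC-seq counts in 100-kb windows of the gain (bars) and for RNA of 4 genes (diamonds), by distance from Mycn in Mb (x axis). Windows left of Mycn are mostly above 0 and those from Mycn to the right mostly below, and Fam49a RNA is above 0 while Mycn, Ddx1 and Nbas RNA are below.

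The other expressed genes in the gain were low. The long noncoding RNA 4930519A11Rik (chr12:12902720-12907378, plus strand) had 24.8 and 18.5 CPM in TKO 1 and TKO 2, 0.222 CPM in TKO 3 and at most 0.191 CPM in the mutants. The processed pseudogene Gm6736, which lies on the minus strand within Nbas, had 7.16 and 11.4 CPM in TKO 1 and TKO 2, 0 in TKO 3 and at most 0.674 CPM in the mutants. Whether its reads came from Nbas cannot be told apart, since the strand setting of the counting is not given in the sources used here. Rad51ap2 had 1.83 and 1.66 CPM in TKO 1 and TKO 2 and at most 0.133 CPM elsewhere. Of these, Gm6736 had enough counts for the test and was called against NFIB mutant tumors (adjusted p = 0.0333, edgeR) and not against CARM1 knockout tumors (adjusted p = 0.122). The first call was lost without NFIB mutant 3 (adjusted p = 0.101), and against CARM1 knockout tumors the gene was called without TKO 3 and by DESeq2.

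Vsnl1, a neuronal calcium sensor, was the expressed gene in the gain that was not raised in TKO 1 and TKO 2. It had 0.0480 and 0.262 CPM there, 8.86 CPM in TKO 3 and at most 0.0678 CPM in the mutants. The left edge of the gain lies within it, so that its start site (shown above) was inside the gain and its 3′ part outside. The peak over its start had 314 and 255 CPM in TKO 1 and TKO 2 and 18.8 CPM in TKO 3. Thus the gained peak at this start site did not go with RNA of the gene in these tumors, and its RNA was found in TKO 3, which had no gained window at Vsnl1.

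**Figure D5:**
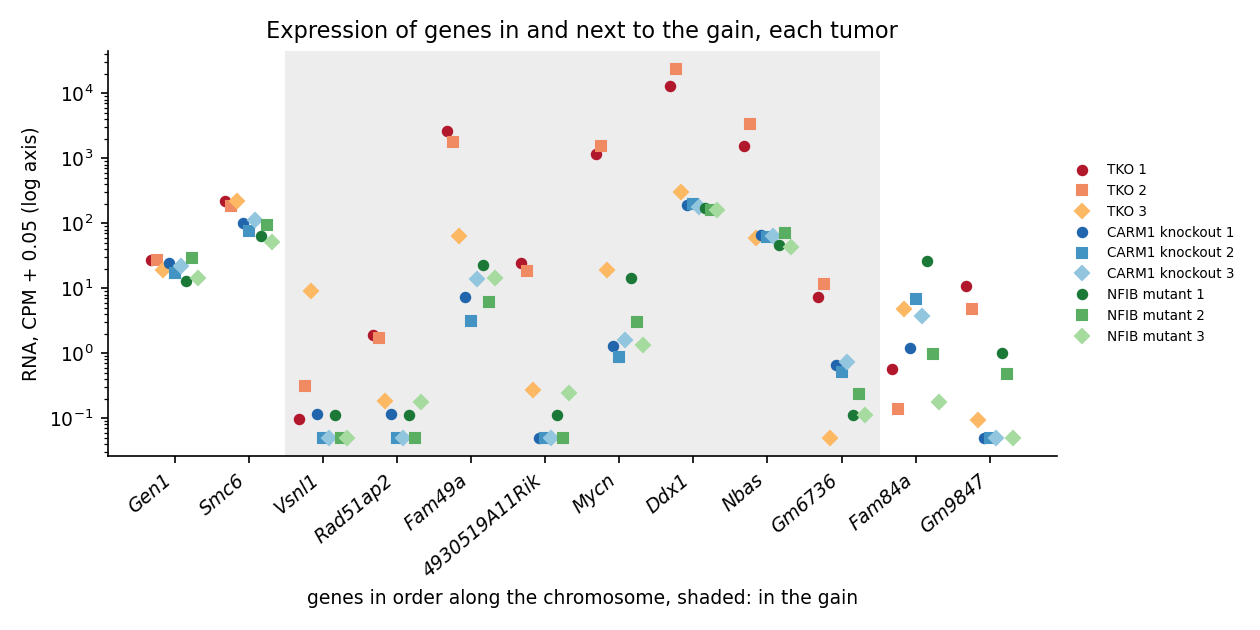
RNA CPM plus 0.05 on a log axis (y) for the genes in the gain (shaded) and 2 expressed genes on either side, in order along the chromosome (x), with 1 point per library. TKO 1 and TKO 2 stand far above the other libraries at Fam49a, 4930519A11Rik, Mycn, Ddx1 and Nbas, but not at Gen1, Smc6, Vsnl1 or Fam84a. They are also the highest at the pseudogene Gm9847, right of the gain, with 10.9 and 4.68 CPM against at most 0.973 CPM elsewhere.

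Next to the gain on the left, Smc6 (chr12:11265886-11319785), a core subunit of the SMC5/6 complex that keeps chromosomes intact, had 221, 182 and 222 CPM in TKO 1, 2 and 3. It had 101.5, 75.0 and 110.5 CPM in CARM1 knockout and 63.5, 94.1 and 51.8 CPM in NFIB mutant tumors. All TKO tumors were above all mutants, and TKO 3 was as high as TKO 1. The log2 difference was 1.12 from CARM1 knockout (standard error 0.25, adjusted p = 0.0125, edgeR) and 1.58 from NFIB mutant (0.26, adjusted p = 0.00291). Next to the gain on the right, Fam84a (chr12:14146830-14152054) had 0.529, 0.0875 and 4.74 CPM in TKO and 0.127 to 26.5 CPM in the mutants. It was not called (adjusted p = 0.652 and 0.335, edgeR).

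Over the whole span, 20 genes had enough counts for the test. Against CARM1 knockout tumors 10 of them were higher in TKO and 2 lower, beside 18.3% and 20.5% of all 15514 genes tested. Against NFIB mutant tumors 11 were higher and 2 lower, beside 23.5% and 22.3%. A call needed an adjusted p under 0.1 and a log2 fold change of at least 0.8. The median log2 fold change over the 20 genes was 1.15 and 1.42, beside 0.03 and 0.05 over all genes. With totals alone as the scaling, the median over all genes moved to 0.30 and 0.37, and the share of higher among all calls went from 47.1% to 60.6% and from 51.3% to 64.2%. Both comparisons share the TKO libraries. Called higher against both mutants were the 4 genes above in the gain and 5 outside it, and called lower were 2 outside it. Over all genes, the share called in the same direction against both was not counted, so nothing is read from these counts.

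The 5 higher genes outside the gain were above all mutants in each of the 3 TKO tumors. The share of all genes that separate in this way was not counted. Greb1, a cofactor of hormone receptors, had 56.9, 47.4 and 116 CPM in TKO 1, 2 and 3 and 0 to 4.33 CPM in the mutants, with log2 fold changes of 5.55 (adjusted p = 0.0250, edgeR) and 9.39 (adjusted p = 0.00669). These folds rest on single libraries, since they became 8.77 without CARM1 knockout 3 and 13.40 without NFIB mutant 1, with both calls kept. Lpin1, a phosphatidate phosphatase of lipid synthesis, had 48.0, 53.1 and 79.9 CPM in TKO and 7.86 to 18.2 CPM in the mutants (log2 fold changes 2.41 and 2.11). Besides Smc6, the others were Trib2, a pseudokinase, with log2 fold changes of 1.18 and 1.27, and E2f6, a repressor of the E2F family, with 0.81 and 1.03. Trib2 was no longer called against CARM1 knockout tumors without any 1 of the TKO or CARM1 knockout libraries (adjusted p up to 0.182), nor against NFIB mutant tumors without TKO 1 or TKO 2 (up to 0.124). E2f6 was no longer called against CARM1 knockout tumors without TKO 1, CARM1 knockout 1 or CARM1 knockout 2.

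The 2 lower genes lay at the left end of the span. Osr1, a zinc finger factor of embryonic mesenchyme, had 0.0961, 0.350 and 0.0443 CPM in TKO 1, 2 and 3 and 13.6 to 47.4 CPM in the mutants, with log2 fold changes of -7.39 and -7.28. Matn3, a cartilage matrix protein, had at most 0.240 CPM in TKO and 0.445 to 2.22 CPM in the mutants, with -4.06 and -3.51. Matn3 was no longer called without TKO 2 in either comparison, nor against NFIB mutant tumors without NFIB mutant 2 (adjusted p up to 0.108 and 0.139). The fibroblast markers given above moved the same way as these genes, and their part was not tested. Near the right end, Ntsr2, a neurotensin receptor, had 20.8, 77.8 and 14.8 CPM in TKO 1, 2 and 3 and 18.5 CPM in CARM1 knockout 3, with at most 0.182 CPM in the other mutants. It was called against NFIB mutant tumors (adjusted p = 0.0370, edgeR) and not against CARM1 knockout tumors (adjusted p = 0.339). The call was lost without NFIB mutant 2 or 3 (adjusted p up to 0.105), and without CARM1 knockout 3 the gene was called against CARM1 knockout tumors as well (adjusted p = 0.00950). The processed pseudogene Gm9847 (chr12:14494561-14495159), beyond the right edge, had 10.9 and 4.68 CPM in TKO 1 and TKO 2 and at most 0.973 CPM elsewhere, and its reads may be shared with the gene it copies. It was called against CARM1 knockout tumors (adjusted p = 0.0484) and not against NFIB mutant tumors (adjusted p = 0.190). The call was lost without TKO 1 or CARM1 knockout 1 (adjusted p up to 0.102), and against NFIB mutant tumors the gene was called without TKO 3 and with the replicate number as a block.

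Between the mutants, edgeR called 0 of the 20 genes, beside 0% of all genes, with 2 at an unadjusted p under 0.05. Over all genes 1414 had an unadjusted p under 0.05 by edgeR. DESeq2 called 0 genes of the span too, beside 317 positive and 223 negative calls among all 27468 genes (CARM1 knockout minus NFIB mutant). With 3 libraries in each group the standard errors in the gain were wide.

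The MAX network, Mycn with Max and related factors, was looked at as a list. Mycn itself is thus among its genes and was called higher in both comparisons. Of 13 genes tested, 3 were higher and 1 lower in TKO than in CARM1 knockout tumors, with a median log2 fold change of 0.76. Against NFIB mutant tumors 5 were higher and 1 lower, with a median of 0.35. Over all genes tested 18.3% were higher and 20.5% lower against CARM1 knockout, and 23.5% and 22.3% against NFIB mutant tumors, so 3 of 13 is near the share of all genes. Myc had 2.88, 1.44 and 27.9 CPM in TKO 1, 2 and 3, 56.1 to 87.2 CPM in CARM1 knockout and 44.7 to 93.6 CPM in NFIB mutant tumors. It was the lower gene in both comparisons (log2 fold changes -2.78 and -2.84, adjusted p = 0.0647 and 0.0534, edgeR). TKO 1 and TKO 2 had less Myc RNA than any other library. DESeq2 did not call Myc against either mutant, and the calls were also lost without TKO 1, among other libraries (adjusted p up to 0.146 and 0.125).

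Mycl, the family member often raised in neuroendocrine tumors, had 146, 14.7 and 7.18 CPM in TKO 1, 2 and 3. It had 14.7, 7.87 and 11.4 CPM in CARM1 knockout and 1.40, 2.03 and 2.16 CPM in NFIB mutant tumors. TKO 1 stood alone, and TKO 2, with the same edges of the gain, was level with CARM1 knockout 1. Mycl was called against NFIB mutant (log2 fold change 4.90, adjusted p = 0.0121, edgeR) and not against CARM1 knockout tumors (2.30, adjusted p = 0.108), where it was called without TKO 2 or TKO 3, by DESeq2 and in 2 other settings. Max, the partner of all 3, had 75.4, 95.2 and 63.7 CPM in TKO, and was called higher against CARM1 knockout (log2 fold change 1.46, adjusted p = 0.00200) but not against NFIB mutant tumors (0.35, adjusted p = 0.169). Mxd3, a MAX partner that opposes MYC, was called higher against both (0.81 and 0.96).

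Few known targets of MYC factors were called. Of 20 targets, 0 were higher and 1 lower in TKO than in CARM1 knockout tumors, and 1 was higher and 3 lower against NFIB mutant tumors, beside the same shares of all genes. With totals alone as the scaling, 6 were higher and 2 lower against NFIB mutant tumors, which turns the balance of the calls. The median log2 fold change was -0.19 and 0.17, beside 0.03 and 0.05 over all genes, and with totals alone it was 0.08 and 0.49, so that the first changes sign. Ncl, a nucleolar protein of ribosome assembly, was the higher one, with 972, 1470 and 546 CPM in TKO 1, 2 and 3 and 508 to 589 CPM in NFIB mutant tumors. The lower ones were Ccnd2, Ldha and Odc1 against NFIB mutant tumors, and Ccnd2 against CARM1 knockout tumors. Odc1, the first enzyme of polyamine synthesis, had 219, 220 and 211 CPM in TKO 1, 2 and 3, with TKO 3 close to TKO 1 and TKO 2, and 212 to 1412 CPM in the mutants. Its call against NFIB mutant tumors was lost without TKO 1, TKO 2, TKO 3 or NFIB mutant 2 (adjusted p up to 0.170).

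Of 7 cofactors and turnover factors of MYC proteins, 1 was called, higher against both mutants: Fbxw7, the ubiquitin ligase subunit that marks MYC proteins for breakdown, with log2 fold changes of 0.82 and 1.16. Of all genes tested, 18.3% and 23.5% were higher. The median of the 7 was 0.05 and 0.19. Nfib had 420 to 580 CPM in TKO, 74.5 to 216 CPM in CARM1 knockout and 83.3 to 105 CPM in NFIB mutant tumors, and was higher in TKO than in both (log2 fold changes 2.06 and 2.49, adjusted p = 0.00799 and 0.00325, edgeR), TKO 3 included.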

How the data were processed

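RNA-seq and ATAC-seq were made from tumor cells of 3 animals per genotype. The authors deposited RNA-seq counts per gene (Trim Galore, HISAT2 and htseq-count per the Methods) and ATAC-seq counts per peak of 1 merged peak set (Bowtie2, Picard and MACS2 per the Methods, Genrich per the labels, with featureCounts 1.6.3 per the file header), both on GRCm38 and without normalization. The column names were matched to the sample labels by genotype and number. Summary rows of the RNA table (no feature 3.65 to 12.2%, ambiguous 3.84 to 4.50%, not unique 3.18 to 6.31% of reads) were left out.

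From these counts, genes and peaks were filtered by filterByExpr, scaled by TMM and fitted over all 9 libraries with edgeR 4.0.16 (robust quasi-likelihood test, R 4.3.3), with Benjamini-Hochberg adjustment over all features. DESeq2 1.42.0 was an alternative. The fits were checked on simulated counts. Named were Mycn, Ddx1, Nbas and Fam49a, every gene of the span called in the same direction against both mutants, the expressed genes nearest to the gain on either side, and Myc, Mycl, Nfib and Odc1. Named peaks were the one over Mycn, the 5 with the highest CPM, the 5 longest, and those at the edges of the gain and the span. Other expressed genes in the gain, the genes called against 1 mutant, the peak over the start of Vsnl1 and single genes of the lists were named after their values were seen. The members, lists and tests were chosen with earlier results of these data known. Replicate numbers were not used to pair libraries across genotypes in the main fits. Deviations from the genotype mean correlated at -0.297 to 0.118 between libraries with the same number and at -0.137 to 0.187 between those with different numbers. With 3 libraries per genotype, these values cannot show whether any were paired.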

Additional observations from a re-analysis of the deposited data

How the results depend on the processing

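Of 389 values under other settings, 338 kept their direction and call or stayed near the first value, as did 434 of 468 values without 1 library. The cause of the other changes was not tested, except where fewer features were tested. With at least 10 counts in every library, 0 genes of the span were called lower in TKO in either comparison, and 32 and 33 peaks against CARM1 knockout and NFIB mutant tumors. With the groups compared alone, 1 gene was lower against NFIB mutant tumors. The MAX network had 2 calls against CARM1 knockout with every feature kept. The MYC targets had 0 with at least 10 counts and 2 with the groups compared alone or DESeq2, and 8 against NFIB mutant tumors with totals alone. The cofactors had 2 with totals alone in both comparisons and 0 with every feature kept against CARM1 knockout.

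The extent of the gain depended on its definition. Against the other libraries of the same genotype it fell to 300 kb in TKO 1, 0 kb in TKO 2 and 400 kb in TKO 3, since TKO 1 and TKO 2 are then each other's reference. With short peaks alone it was 1800, 1900 and 100 kb. For TKO 3 it was 900 kb at a log2 ratio of 1, 100 kb at 3, 400 kb with windows of 200 kb and 100 kb with totals outside the span. At a log2 ratio of 1 the mutants had 100, 300, 100, 100, 100 and 200 kb. Within 1 Mb of Mycn the shares of ATAC-seq counts were 9.26, 9.07 and 0.15% (TKO), 0.113, 0.0739 and 0.0822% (CARM1 knockout) and 0.112, 0.0994 and 0.0711% (NFIB mutant). Over the whole span, with peaks of at most 5000 bp alone, the shares were 0.435, 0.269 and 0.105%, 0.11, 0.113 and 0.12%, and 0.102, 0.126 and 0.116%.

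Without 1 library each, the lower genes numbered 1 to 2 in both comparisons, MAX network calls 2 to 6 and 3 to 7, MYC target calls 1 to 3 and 1 to 7, cofactor calls 0 to 1 and 1 to 2, and the gain of TKO 3 was 200 to 300 kb. Fam84a against NFIB mutant tumors ranged from -4.90 to 1.74 (log2), the sign turning without NFIB mutant 1. With the replicate number as a block, 9 and 12 genes of the span were called higher. No depth limits the gain itself, while genes under 1 CPM rest on few counts.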
